A study of Mus musculus with 8 samples.

Results

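The dystrophin glycoprotein complex is described here through 8 genes, Dmd, Utrn, Dag1, Sgca, Sgcb, Sgcd, Dtna and Sspn. They were chosen by name for what their proteins are known to do, though with earlier results of these data known. They are 8 of the 24054 genes measured. SOL, the soleus muscle of the hindlimb, was taken from 4 MI4KO mice and 4 flox mice for RNA-seq, and the comparison asks how gene expression in muscle differs when Irf4 is deleted there. Per the labels, all 8 mice were C57BL/6 males fed a high fat diet. The study's text does not name the diet or age of the sequenced mice. It describes the mice on chow diet and calls its work with a high-fat diet ongoing, so label and text differ. MI4KO mice carried floxed Irf4 alleles and Cre under the control of Myl1, a myosin light chain gene that drives it in skeletal muscle fibers, and flox mice carried the floxed alleles without Cre. Irf4 is a transcription factor of the interferon regulatory factor family. The study calls this Cre selective for skeletal muscle. The vessels, nerve sheaths, satellite cells and connective tissue between the fibers are not its intended target, and deletion in them was not measured. Within each group, mice were given the numbers 1 to 4 from the lowest to the highest mouse number in the labels.

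Each value is a read count divided by the size of its library, after the authors had scaled library sizes with TMM, which assumes that most genes keep their level. The unit is called TMM-normalized CPM below. The libraries held 13417512 to 16384565 reads on genes, and 3 reads correspond to a value of 0.181 to 0.225. The groups were compared with limma on log2(value + 1) for the 11865 genes that reached a value of 1 in 4 or more of the 8 samples, so a fold change of a gene with a low value is understated. Irf4 itself was near the limit of detection, with 11, 21, 21 and 23 reads in flox 1 to 4 and 10, 13, 4 and 17 reads in MI4KO 1 to 4, summed over the whole gene and not over the deleted exons alone. Its values overlapped between the groups and its log2 fold change was -0.45 ± 0.20 (SE, unadjusted p = 0.0402 and adjusted p = 1.0 in limma). Soleus is rich in slow fibers, and their markers were high in every sample, with Myh7, the slow myosin heavy chain, at 11079 to 14577. Myh4, a fast myosin heavy chain, ranged from 34.5 to 2496 in flox samples and from 55.8 to 2174 in MI4KO samples. Flox 1 and MI4KO 3 stood apart from the other samples: the summed value of 10 liver genes was 166.8 in flox 1 and 5.22 to 14.4 in the other 7, and the sum of 5 neutrophil genes was 6.38 in MI4KO 3 and 1.43 to 2.36 in the other 7.

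The complex links the actin cytoskeleton inside a muscle fiber to the basement membrane outside it and protects the fiber membrane, the sarcolemma, during contraction. Dystrophin binds actin at one end and the membrane protein dystroglycan at the other, dystroglycan binds laminin in the matrix, and the sarcoglycans and sarcospan form a subcomplex beside it, while dystrobrevin and the syntrophins gather signaling proteins on the inner face. Loss of dystrophin causes Duchenne muscular dystrophy, loss of a sarcoglycan causes a limb-girdle dystrophy, and utrophin, the close relative of dystrophin, is known to replace it in part when it is raised.

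Since Irf4 is a transcription factor, the 250 bases before transcript starts of the genes in RefSeq were searched on both strands for GAAA followed by any 2 bases and a further GAAA, the core of the element bound by interferon regulatory factors (ISRE), and for CANNTG, the E-box bound by myogenic factors. RefSeq windows (build GRCm38.p6) were given for 7 of the 8 genes, 10 windows in all, and none for Dtna. Only 4 of the 10, those of Sgca and Sgcb, 1 of Dmd and 1 of Dag1, lay within 60 bases of the start of the gene in GENCODE, and those of Utrn and Sgcd began 7630 and 609644 bases inside it, so the counts are over RefSeq windows and not over gene starts. The 2 windows of Dag1 overlap and share 1 E-box. The ISRE core was in 0 of the 10 windows and in 2.98% of 32851 windows of all genes, and CANNTG was in 7 of the 10 and in 66.2% of all. A match describes letters only, and a window without one says nothing of binding elsewhere. The windows of 1 cytoskeletal, 1 sarcoglycan and 1 matrix-binding gene that end exactly at the start of the gene in GENCODE are shown, 5′ to 3′ on the strand of the gene, with CANNTG in capitals. The window of Dmd is chrX:82948620-82948869 on the plus strand, with matches that begin 173 and 61 bases before the start. That of Sgca is chr11:94976328-94976577 on the minus strand, with 1 match at 86 bases, and that of Dag1 is chr9:108263959-108264208 on the minus strand, with 1 match at 104 bases.
Dmd: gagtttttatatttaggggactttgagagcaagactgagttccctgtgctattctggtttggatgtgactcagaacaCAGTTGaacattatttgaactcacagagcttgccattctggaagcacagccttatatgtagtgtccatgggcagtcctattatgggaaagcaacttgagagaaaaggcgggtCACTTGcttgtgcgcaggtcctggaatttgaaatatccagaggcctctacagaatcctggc
Sgca: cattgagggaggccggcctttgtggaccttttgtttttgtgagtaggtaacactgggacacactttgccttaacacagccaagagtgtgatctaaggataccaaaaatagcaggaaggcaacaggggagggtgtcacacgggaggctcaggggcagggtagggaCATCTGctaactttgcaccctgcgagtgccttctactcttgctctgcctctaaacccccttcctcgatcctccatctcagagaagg
Dag1: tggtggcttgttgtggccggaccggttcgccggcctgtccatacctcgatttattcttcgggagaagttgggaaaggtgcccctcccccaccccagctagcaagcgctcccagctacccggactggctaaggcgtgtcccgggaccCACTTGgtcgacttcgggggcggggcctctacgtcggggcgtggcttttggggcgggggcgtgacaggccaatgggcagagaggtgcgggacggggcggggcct

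None of the 8 genes passed a test of difference between MI4KO and flox SOL in limma on the deposited values, edgeR or DESeq2. With library-size scaling 2 of the 8, Sgcb and Dtna, passed an unadjusted p under 0.05 in limma without the fold limit. At an unadjusted p under 0.05 and a change of 1.5-fold or more, the study's limits, limma called 0 of the 8, beside 0.219% of all 11865 genes tested. The study applied these limits to its own edgeR fit and reported more SOL genes past them than the 26 of limma here. At an unadjusted p under 0.05 alone limma also called 0 of the 8, beside 3.36% of all genes, and so did edgeR (beside 3.06%) and DESeq2 (beside 2.09%) on whole reads recovered from the values. The adjusted p was 1.0 for each of the 8, and no gene of the table passed an adjusted p under 0.05 in limma, edgeR or DESeq2. The values of the groups overlapped for all 8, whereas 2.07% of all genes tested did not overlap. Log2 fold changes lay between -0.08 for Sspn and 0.10 for Sgcb, with a median of 0.01 over the 8 beside -0.01 over all genes tested. The 95% confidence intervals, put as folds, ran from 0.801 to 1.253 over the 8, so a change of 1.5-fold in either direction lay outside every interval. These limits apply to the mean of bulk tissue, in which fewer cells of a type and less RNA per cell cannot be told apart.

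**Figure D1:**
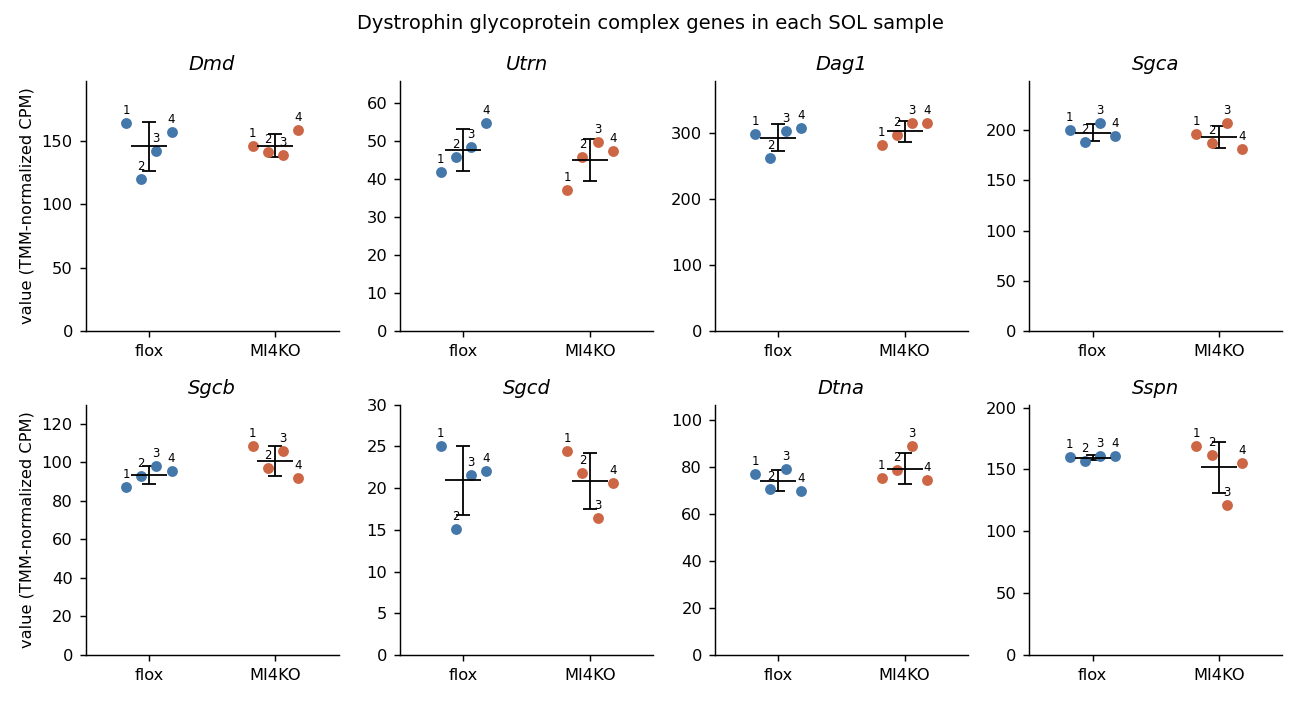
The TMM-normalized CPM value of each of the 8 genes in each sample, with the sample number above each point, flox in blue and MI4KO in orange, and horizontal lines at the mean with bars of 1 SD (n = 4 per group). The groups overlap in all 8 panels, and MI4KO 3 lies below the other samples for Sspn, at 121.6.

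Dmd encodes dystrophin, the actin-binding rod of the complex, and lies on chromosome X of GRCm38 from 82948870 to 85206141. Its values were 164.2, 119.8, 141.6 and 156.7 in flox 1 to 4 and 146.2, 141.3, 138.8 and 158.8 in MI4KO 1 to 4. The highest and the lowest of the 8 samples were both flox, and the MI4KO samples lay between them. The means were 145.6 ± 19.6 (SD, n = 4) in flox and 146.3 ± 8.87 (SD, n = 4) in MI4KO, with a log2 fold change of 0.02 ± 0.10 (SE, 95% interval -0.19 to 0.22, limma unadjusted p = 0.877). Without flox 2, the lowest sample, it was -0.07.

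Utrn encodes utrophin, which is concentrated at the neuromuscular junction in mature muscle, and lies on chromosome 10 from 12382188 to 12869365. Its values were 41.8, 45.9, 48.5 and 54.9 in flox 1 to 4 and 37.1, 46.0, 49.7 and 47.5 in MI4KO 1 to 4. MI4KO 1 was the lowest and flox 4 the highest, with the other 6 samples between 41.8 and 49.7. MI4KO minus flox was -0.08 ± 0.11 on the log2 scale (SE, 95% interval -0.31 to 0.15, limma unadjusted p = 0.441). The ratio of Utrn to Dmd within a sample, which no scaling of the library can change, was 0.254 to 0.383 in flox and 0.254 to 0.358 in MI4KO. These ranges overlapped over nearly their whole width, and the log2 ratio differed by -0.10 (exact two-sided permutation test, p = 0.543, n = 4 per group).

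Dag1 encodes dystroglycan, whose alpha chain binds the matrix and whose beta chain crosses the membrane, and lies on chromosome 9 from 108204634 to 108263958. Its values were 297.7, 261.9, 302.7 and 307.2 in flox 1 to 4 and 281.1, 296.6, 314.2 and 314.9 in MI4KO 1 to 4. The 2 highest samples were MI4KO and the lowest was flox 2, which was also the lowest sample for Dmd. Dag1 had a log2 fold change of 0.05 ± 0.07 (SE, 95% interval -0.11 to 0.21, limma unadjusted p = 0.543), and it was -0.0054 without flox 2. The ratio of Dag1 to Dmd was 1.81 to 2.19 in flox and 1.92 to 2.26 in MI4KO, a log2 difference of 0.03 (exact permutation test, p = 0.714, n = 4 per group).

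The sarcoglycans are single-pass membrane proteins that assemble as a unit. Sgca, the alpha subunit, which is largely confined to striated muscle, lies on chromosome 11 from 94962791 to 94976327. Its values were 200.2, 188.0, 207.1 and 194.3 in flox 1 to 4 and 196.1, 187.5, 207.3 and 181.4 in MI4KO 1 to 4. The samples of both groups were interleaved, and Sgca varied least of the 8 genes, with a coefficient of variation of 4.81% over the 8 samples. Its log2 fold change was -0.03 ± 0.07 (SE, 95% interval -0.18 to 0.11, limma unadjusted p = 0.638).

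Sgcb, the beta subunit, which is also made outside muscle, lies on chromosome 5 from 73632749 to 73647790. Its values were 87.5, 93.0, 98.2 and 95.4 in flox 1 to 4 and 108.3, 96.9, 105.9 and 91.9 in MI4KO 1 to 4. MI4KO 1 and 3 lay above all flox samples, and MI4KO 4 lay below 3 of them. The log2 fold change, 0.10 ± 0.07 (SE, 95% interval -0.06 to 0.27, limma unadjusted p = 0.185), was the highest of the 8 genes and was 0.15 (unadjusted p = 0.0448) when values were scaled to the library size instead of by TMM.

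Sgcd, the delta subunit, lies on chromosome 11 from 46896253 to 47988969. Its values were 25.0, 15.1, 21.6 and 22.0 in flox 1 to 4 and 24.4, 21.9, 16.4 and 20.7 in MI4KO 1 to 4. Flox 2 was the lowest sample in flox and MI4KO 3 the lowest in MI4KO. On the log2 scale the groups differed by 0.0024 ± 0.15 (SE, 95% interval -0.32 to 0.32, limma unadjusted p = 0.987), and it was -0.14 without flox 2. Sgcd had the fewest reads of the 8 genes, 218 to 401 per sample, the widest interval and the highest coefficient of variation, 16.7%, where counting alone would give 5.69%.

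Dtna encodes alpha-dystrobrevin, the inner-face partner of dystrophin that carries syntrophins, and lies on chromosome 18 from 23415135 to 23659715. Its values were 77.1, 70.8, 79.3 and 69.9 in flox 1 to 4 and 75.2, 79.0, 88.9 and 74.5 in MI4KO 1 to 4. MI4KO 3 was the highest of the 8 samples, and the other MI4KO samples lay within the range of the flox samples. Dtna had a log2 fold change of 0.09 ± 0.08 (SE, 95% interval -0.08 to 0.26, limma unadjusted p = 0.259), and it was 0.14 (unadjusted p = 0.0487) with scaling to the library size.

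Sspn encodes sarcospan, a membrane protein with 4 spans that is anchored to the sarcoglycans, and lies on chromosome 6 from 145931641 to 145965223. Its values were 160.4, 156.8, 160.8 and 160.8 in flox 1 to 4 and 168.7, 161.5, 121.6 and 155.0 in MI4KO 1 to 4. The flox samples were within 3 units of their mean, while MI4KO 3 was far below every other sample. The means were 159.7 ± 1.92 (SD, n = 4) in flox and 151.7 ± 20.8 (SD, n = 4) in MI4KO, and the log2 fold change was -0.08 ± 0.09 (SE, 95% interval -0.29 to 0.12, limma unadjusted p = 0.381). It was 0.02 without MI4KO 3.

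**Figure D2:**
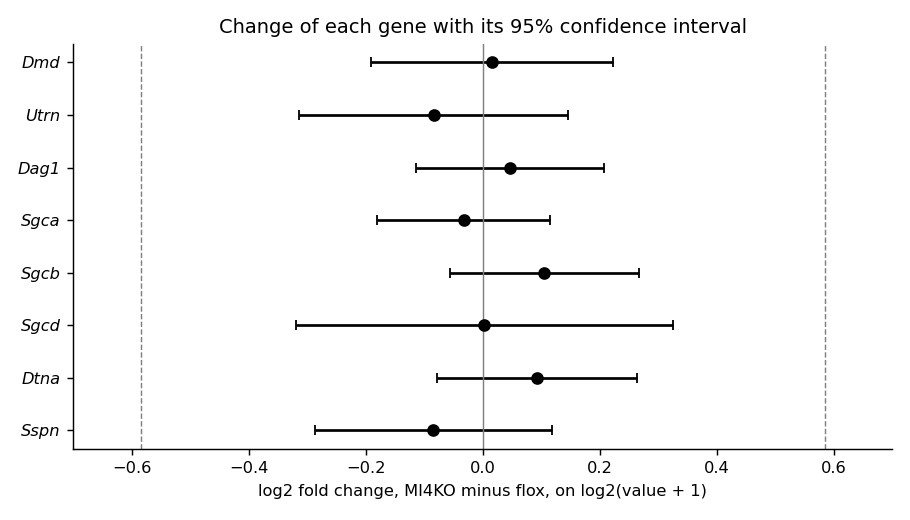
The log2 fold change of each of the 8 genes, MI4KO minus flox, on log2(value + 1), with points at the limma estimate, bars for the 95% confidence interval and dashed lines at a 1.5-fold change in either direction. All 8 intervals span 0 and none reaches a dashed line. The widest, that of Sgcd, runs from -0.32 to 0.32.

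Flox 1 and MI4KO 3 were left out together as a further check, chosen after seeing the data. The log2 fold changes of the 8 genes then lay between -0.19 for Utrn (limma unadjusted p = 0.0928) and 0.20 for Sgcd (unadjusted p = 0.172). The mouse numbers also fell in 2 ranges whose meaning is not labelled, the lower with flox 1 and MI4KO 1 and 2 and the upper with the other 5 samples. Within the lower range Sgcb was higher in MI4KO by 0.23 and Dmd was lower by 0.19 on the log2 scale, with only 1 flox sample. In the upper range the differences were 0.05 for Sgcb, 0.10 for Dmd and -0.21 for Sspn. With the range as a covariate, unadjusted limma p-values of the 8 genes were between 0.20 for Sspn and 0.965 for Dmd.

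Levels of different genes were compared only after division by the length of the merged exons of each gene in kb. On this scale of TMM-normalized CPM per kb, Sgca was the highest of the 8 genes, at 112.5 as the mean of the 8 samples (range 104.5 to 119.5). Dag1 followed at 46.7, Sspn at 31.2 and Sgcb at 24.0, and these 4 genes were above 87.1% or more of 11320 genes. Dmd at 6.13, Dtna at 4.54, Utrn at 2.71 and Sgcd at 2.53 formed the lower 4. The ranges over the 8 samples overlapped between Sspn and Sgcb, between Dmd and Dtna and between Utrn and Sgcd, so their spreads over the samples were not separate. Within a sample, Dmd was above Dtna in 8 of 8, Sspn above Sgcb in 7 of 8 and Utrn above Sgcd in 6 of 8. Genes with many alternative exons are lowered most by this length, which comes from GENCODE, whereas reads were counted on UCSC transcripts. Divided by the longest coding transcript instead, Dtna stood at 12.2, Dmd at 9.79 and Sgcd at 8.53, and Utrn became the lowest of the 8 at 3.75. The level of Utrn per kb was below that of Dmd on both lengths in all 8 samples, with no overlap between the genes.

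**Figure D3:**
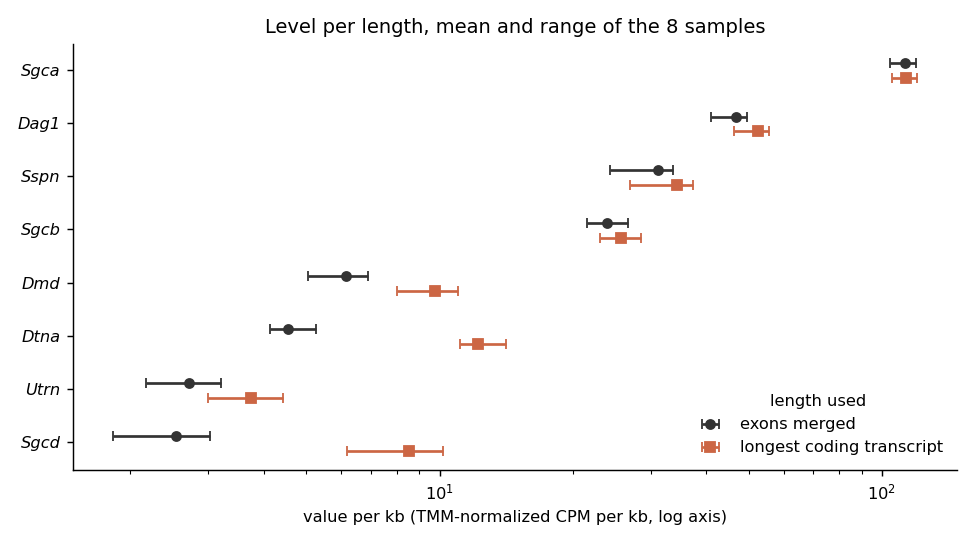
Level of each of the 8 genes per kb on a log axis, as the mean (symbol) and range (bar) of the 8 samples, with length taken as the merged exons (black circles) or the longest coding transcript (orange squares). Sgca is at the top on both lengths, at 112.5 and 113.2, and the length chosen moves Dtna and Sgcd most.

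The spread over the 8 mice was narrowest for Sgca and widest for Sgcd. The coefficient of variation was 4.81% for Sgca, 6.02% for Dag1, 7.21% for Sgcb, 7.74% for Dtna, 9.21% for Sspn, 9.65% for Dmd, 11.4% for Utrn and 16.7% for Sgcd, where counting alone gives 1.51% to 5.69%. The median over the 4702 genes with levels in the same range was 8.21%, so 4 of the 8 genes varied less than this median and 4 varied more. The genes most like each member over the 8 samples, by Pearson's r on log2(value + 1) among 9122 genes, were picked as the top of that ranking and carry no test. They were Chd9 (0.94) for Dmd, Arfip2 (0.97) for Utrn, Stk38 (0.98) for Dag1, Ogfr (0.99) for Sgca, Ppp2cb (0.99) for Sgcb, Tmem182 (0.97) for Sgcd, Nfil3 (0.96) for Dtna and Atp1b4 (0.97) for Sspn. The next were Ltbp3 (0.93), Mxd4 (0.96), Apoo-ps (0.95), Mtfr1l (0.98), Sf3b6 (0.97), Dhx32 (0.96), Malsu1 (0.95) and Igsf1 (0.97), in the same order. Single samples lay far from the rest for several of these genes. In MI4KO 3, Atp1b4 was 3.19 and Igsf1 2.73 beside 8.19 to 12.7 and 6.80 to 9.21 in the other 7 samples, and Nfil3 was 84.6 and Malsu1 33.6 beside 19.3 to 39.6 and 23.8 to 26.4. In flox 2, Apoo-ps was 2.15 beside 8.99 to 29.9 in the other 7.

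Of 9 further subunits and bound proteins, 5 were tested and 1, Sgce, passed an unadjusted p under 0.05, beside 3.36% of all genes tested. None passed the fold limit. Sgcz and Sntg1 had 0 reads in every sample, which allows a value of up to 0.181 to 0.225. The changes ran from -0.37 for Sgce to 0.22 for Nos1, the neuronal nitric oxide synthase held at the sarcolemma by the complex, whose values were 10.3 to 17.0 in flox and 9.70 to 23.7 in MI4KO (limma unadjusted p = 0.385). Nos1 overlapped widely between the groups, with MI4KO 3 and 4 above all flox samples.

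Sgce encodes epsilon-sarcoglycan, a relative of Sgca that is made in many tissues. Its values were 5.17, 5.90, 5.10 and 6.70 in flox 1 to 4 and 3.92, 4.85, 3.12 and 5.08 in MI4KO 1 to 4. Every MI4KO sample was below every flox sample, from only 47 to 92 reads per sample and with flox 3 and MI4KO 4 nearly equal. The log2 fold change was -0.37 ± 0.14 (SE, limma unadjusted p = 0.0240, adjusted p = 1.0). It was -0.41 (unadjusted p = 0.0526) in edgeR and -0.40 (unadjusted p = 0.0586) in DESeq2, and p was above 0.05 with library-size scaling and when flox 2, flox 4, MI4KO 1 or MI4KO 3 was left out. Without flox 1 and MI4KO 3 together the change was -0.30 (limma unadjusted p = 0.0616). The log2 ratio of Sgce to Sgca differed by -0.42, with overlap (exact permutation test, p = 0.171, n = 4 per group). The log2 ratio of Dtnb, the beta-dystrobrevin gene, to Dtna also overlapped and differed by 0.07 (exact permutation test, p = 0.886, n = 4 per group). Adjusted over the 4 ratios, p was 0.686 for Sgce to Sgca and 0.886 for the other 3 (exact permutation tests).

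Point estimates for the matrix side of the link were below 0 in MI4KO SOL, though few genes passed the test. Of the 8 laminin chains and other matrix ligands of dystroglycan, all were tested, all 8 had a log2 fold change below 0, and 3 passed an unadjusted p under 0.05, beside 2.95% of all genes in that direction. None passed the fold limit or an adjusted p. This list, like the other lists here, was chosen with earlier results of these data known, so its share is not an independent comparison. The median was -0.24, beside -0.01 over all genes tested, with Lama4 lowest at -0.31 (unadjusted p = 0.0533) and Lama2, the laminin chain of the muscle basement membrane, at -0.01 (unadjusted p = 0.857). With median-of-ratios scaling 7 of the 8 were below 0 and 1 passed, and with library-size scaling 7 were below 0 and 0 passed. Among all genes at an unadjusted p under 0.05, the share higher in MI4KO was 12.3% with TMM (49 higher and 350 lower), 32.7% with median-of-ratios scaling (129 and 266) and 66.6% with library size (263 and 132). Log2 fold changes of all genes tested moved by a median of 0.02 and 0.04 under these scalings. The part of scaling in the changes of the 3 genes was not tested.

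Lamb2 encodes the laminin beta chain of the neuromuscular junction and vessels, and was the highest of these genes per kb, at 27.3. Its values were 168.0, 170.4, 184.7 and 181.4 in flox 1 to 4 and 146.2, 152.1, 157.0 and 167.3 in MI4KO 1 to 4. All MI4KO samples were below all flox samples, by less than 1 unit between MI4KO 4 and flox 1, and the log2 fold change was -0.18 ± 0.07 (SE, limma unadjusted p = 0.0233). Hspg2 encodes perlecan, a basement membrane proteoglycan. Its values were 231.9, 229.1, 265.6 and 275.4 in flox 1 to 4 and 161.3, 234.4, 203.0 and 238.9 in MI4KO 1 to 4, with a log2 fold change of -0.27 ± 0.12 (SE, unadjusted p = 0.0392). Agrn encodes agrin, which clusters acetylcholine receptors at the synapse. Its values were 12.6, 14.2, 16.1 and 16.1 in flox 1 to 4 and 8.63, 13.6, 12.5 and 13.0 in MI4KO 1 to 4, with a log2 fold change of -0.30 ± 0.14 (SE, unadjusted p = 0.0481). Both Hspg2 and Agrn overlapped between the groups and were lowest in MI4KO 1. Without MI4KO 1 none of the 3 passed, with changes of -0.15 for Lamb2, -0.15 for Hspg2 and -0.16 for Agrn, and none passed without flox 3, without flox 4 or with library-size scaling. With the mouse-number range as a covariate none of the 3 passed either (limma unadjusted p = 0.0518 for Lamb2, 0.0709 for Hspg2 and 0.0876 for Agrn). In edgeR and DESeq2 Lamb2 passed and Hspg2 and Agrn did not, with edgeR unadjusted p = 0.0761 and 0.0744. Without flox 1 and MI4KO 3 together, 4 of the 8 matrix ligands passed, beside 637 of all 11865 genes tested, and the median of the 8 was -0.21.

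Changes of vessel markers had the same sign as those of the matrix ligands, but this sign was not particular to vessels. In the main fit it was shared by 5 of 5 fibroblast, 7 of 7 slow-fiber, 4 of 5 tested Schwann cell and 3 of 4 tested adipocyte genes. It was also shared by 2 of 3 tested satellite cell genes, and tested tendon genes were 2 above and 2 below. Above 0 were 4 of 4 tested macrophage and 6 of 8 fast-fiber genes. Some of these counts turned. Without flox 4, fibroblast genes were 3 above and 2 below, and endothelial markers 1 above and 6 below. Without MI4KO 4, slow-fiber genes were 3 above and 4 below, and all 7 endothelial markers were below. Of 7 endothelial markers, 7 were below 0 and 2 passed an unadjusted p under 0.05, beside 2.95% of all genes in that direction, with a median of -0.19. Cdh5, the cadherin of endothelial junctions, changed by -0.29 (limma unadjusted p = 0.0281) and Kdr, the main receptor for vascular endothelial growth factor, by -0.37 (unadjusted p = 0.0239). The summed value of the 7 was 368.1 to 450.6 in flox and 284.6 to 399.3 in MI4KO, lowest in MI4KO 1, the sample that was also lowest for Lamb2, Hspg2 and Agrn. MI4KO 1 was lowest too for the sums of fibroblast (241.4), adipocyte (7.76) and satellite cell genes (5.44). Of 6 markers of smooth muscle cells and pericytes, 6 were below 0 and 0 passed, with sums of 255.6 to 293.9 in flox and 165.4 to 309.3 in MI4KO. Without MI4KO 1, 0 of the endothelial markers passed and their median was -0.13, while 3 of the smooth muscle markers were above 0 and 3 below, with a median of 0.0050. The endothelial calls were also 0 without flox 2, without flox 3 and with library-size scaling. Without MI4KO 3 there were 3 calls in each list, beside 594 of all 11865 genes tested. Without flox 1 there were 4 endothelial calls, beside 440 of all genes. Without flox 1 and MI4KO 3 together there were 6, beside 637 of all genes. No defining marker of either list was at 0 reads. The part of vessel cells or other cells in the values of the matrix ligands and Sgce was not tested.

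**Figure D4:**
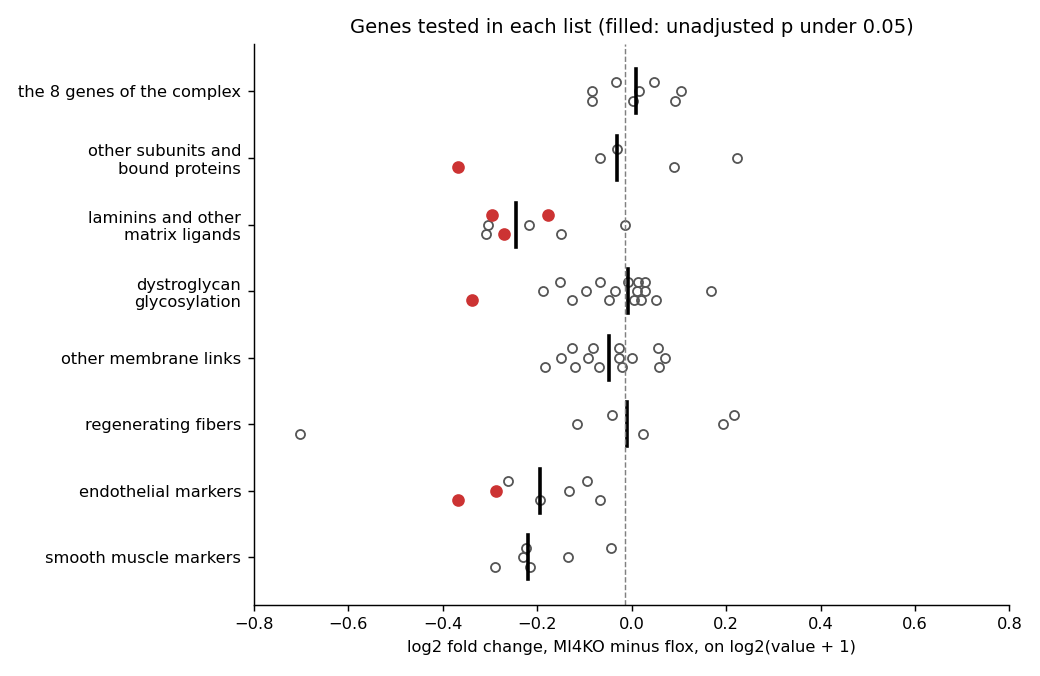
Log2 fold change, MI4KO minus flox, of every tested gene in each list, with filled red points for an unadjusted p under 0.05, black bars at the median of each list and a dashed line at the median of all genes tested, -0.01. The 8 genes of the complex lie between -0.08 and 0.10, and the matrix ligands and both vessel lists lie below 0. Marker lists of other cells are not drawn.

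The alpha chain of dystroglycan binds laminin through a sugar chain, and 17 genes that build this chain or supply its precursors were tested. Of these, 8 were above 0 and 9 below, with a median of -0.01. An unadjusted p under 0.05 was passed by 1, Dpm3, beside 3.36% of all genes tested. Dpm3 encodes a subunit of the enzyme that makes dolichol-phosphate mannose. Its values were 5.67, 5.90, 5.48 and 5.83 in flox 1 to 4 and 3.99, 3.43, 5.19 and 4.83 in MI4KO 1 to 4. All MI4KO samples were below all flox samples, from 53 to 91 reads each, with a log2 fold change of -0.34 ± 0.12 (SE, limma unadjusted p = 0.0184, adjusted p = 1.0), and its unadjusted p was 0.0651 without MI4KO 2. Dpm1, the catalytic subunit of the same enzyme, had a log2 fold change of 0.03 (unadjusted p = 0.734) and Dpm2 by -0.10 (unadjusted p = 0.521). B3galnt2, which adds N-acetylgalactosamine to the chain, had the highest change, 0.17 (unadjusted p = 0.0913), and Pomgnt1, which adds N-acetylglucosamine, the highest level, 21.0 per kb.

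**Figure D5:**
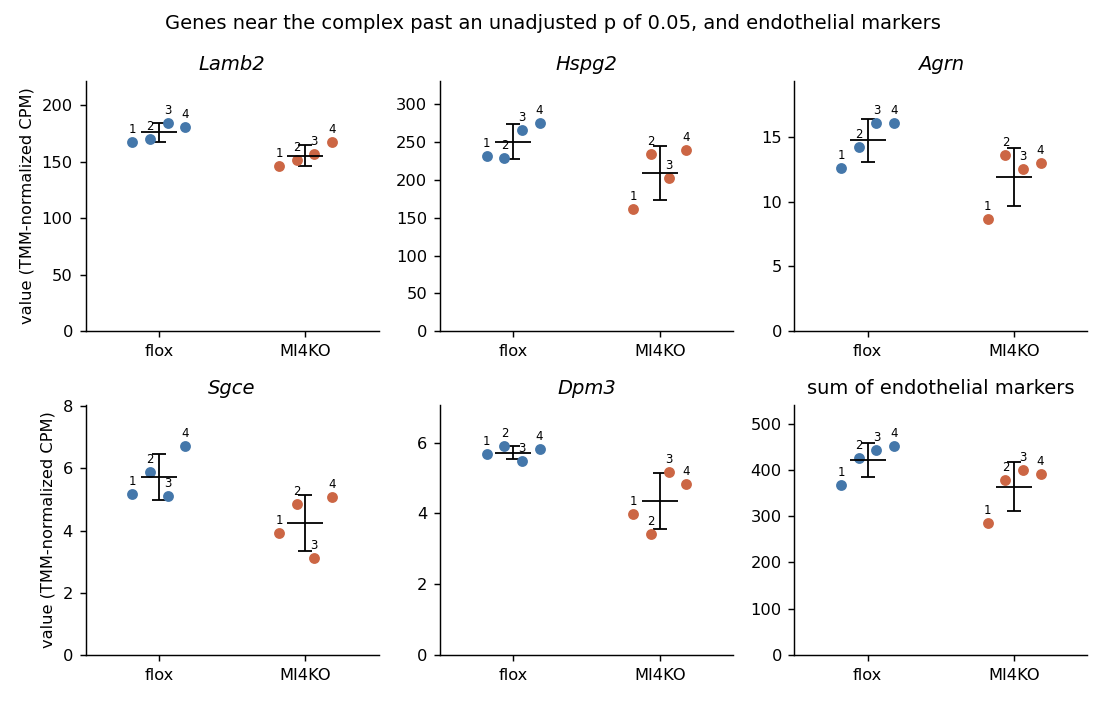
TMM-normalized CPM values in each sample of the 5 genes near the complex that passed an unadjusted p under 0.05, and the sum of 7 endothelial markers, with sample numbers, flox in blue, MI4KO in orange, means and bars of 1 SD (n = 4 per group). Lamb2, Sgce and Dpm3 do not overlap between the groups, and MI4KO 1 is the lowest sample for Lamb2, Hspg2, Agrn and the endothelial sum.

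Fibers have other links between cytoskeleton and membrane, among them integrins, plectin, desmin and caveolin. Of 14 such genes, 4 were above 0 and 10 below, 0 passed an unadjusted p under 0.05 in limma, and the median was -0.05. The changes ran from -0.18 for Actg1, a cytoplasmic actin (unadjusted p = 0.0863), to 0.07 for Des, the intermediate filament desmin (unadjusted p = 0.509), which had the highest level, 1604 per kb. Of 8 genes that rise in regenerating fibers, 6 were tested, 3 were above 0 and 3 below, and 0 passed. Myh3, the embryonic myosin heavy chain, was 36.1, 31.7, 50.9 and 52.2 in flox 1 to 4 and 49.8, 36.3, 9.31 and 23.4 in MI4KO 1 to 4. MI4KO 3 and 4 were below all flox samples and the other 2 within their range, with a log2 fold change of -0.70 ± 0.37 (SE, limma unadjusted p = 0.0834). Myh3 passed both the p and the fold limit with the mouse-number range as a covariate, at -0.88 (unadjusted p = 0.0214), and without MI4KO 1, at -1.02 (unadjusted p = 0.0112), and it was -0.25 (unadjusted p = 0.256) without MI4KO 3. Myh8, the perinatal myosin heavy chain, had a log2 fold change of 0.22 (unadjusted p = 0.472), with 9.07 in MI4KO 1 and 2.0 to 4.50 in the other 7 samples.

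Over these 5 lists outside the complex, 50 of 56 genes were tested, 5 passed an unadjusted p under 0.05, all of them lower in MI4KO, and 0 passed the fold limit. That is beside 3.36% of all genes tested. Values of 3 of the 50 did not overlap between the groups, beside 2.07% of all genes tested.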

How the data were processed

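SOL RNA of 4 MI4KO and 4 flox mice, 1 library per mouse, was analysed, while GAS was not analysed here. The authors made stranded poly(A) libraries and sequenced single reads of 50 bases. Per the study's methods and the labels, reads were demultiplexed with bcl2fastq 2.17, mapped to UCSC transcripts (mm10) with Bowtie2 2.1.0 and counted with RSEM 1.2.15. The deposited signal is TMM-normalized CPM, with column sums of 917785 to 1089208. Some planned genes and ratios are not reported here. Columns of the authors' own edgeR comparison (a fold-change score with a sign, a p-value and an FDR) were deposited too and were not used. All non-zero values (100%) were whole multiples of 1 read (tolerance 0.01), so whole reads could be recovered, and 6086 genes had no read. Reads carry no molecular identifiers, so limits from read counts cover counting error only.

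The members and gene lists were chosen with earlier results of these data known. Genes were tested with limma 3.58.1 in R 4.3.3 with a mean-variance trend and Benjamini-Hochberg adjustment over all genes tested, and ratios by exact permutation tests in scipy 1.17.1, whose smallest p for 4 samples against 4 is 0.0286. The text names the members, list genes past an unadjusted p under 0.05, the highest and lowest change and the highest level per list, the 2 genes most like each member among genes with a mean of 5 or more, and Irf4. Cdh5, Kdr, Myh4, Myh7, Dpm1, Dpm2, Sgcz, Sntg1, Fmod, Cxcr2 and Trf were named after their values were seen. Lengths and positions are from GENCODE M21 on GRCm38, and windows from the RefSeq table of GRCm38.p6. Alternatives were a pseudocount of 0.5, no filter, other scalings, limma without trend or made robust, a covariate for the 2 ranges of mouse numbers, edgeR 4.0.16 and DESeq2 1.42.0 on recovered reads, and each sample left out. Each mouse is 1 sample, and p-values set a group difference against the spread between mice. In limma the spread of a gene is drawn toward a trend over all genes tested.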

Additional observations from a re-analysis of the deposited data

Results flagged for a closer look

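In 34 groups of 4 samples, the highest and lowest sample were tested for a gap to the nearest other sample above Dixon's 95% critical value, which chance gives in about 1 group in 20, and 2 groups had one. Flox 2 was apart from the other flox samples for Sspn, at 156.8 beside 160.4 to 160.8, with a gap of 0.888 of a narrow range. Flox 4 was apart for the log2 ratio of Dtnb to Dtna, at -6.91, with Dtnb at only 8 reads.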

How the results depend on the processing

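Over 18 alternatives, 0 of the 8 genes of the complex passed the unadjusted p with the fold limit in any, their log2 fold changes lay between -0.19 and 0.20, and the lowest adjusted p was 0.895. With library-size scaling 2 of the 8, Sgcb and Dtna, passed the p limit alone, beside 395 of all 11865 genes tested. Signs of changes this close to 0 turned: Sgca was 0.011 with library-size scaling, and Dmd and Sgcd were -0.0044 and -0.080 with the mouse-number range as a covariate. Without flox 2, Dmd was -0.074, Dag1 -0.0054 and Sgcd -0.14. Without MI4KO 1, Utrn was 0.0047 and Sgcd -0.075, without MI4KO 2 Sgcd was -0.024, without MI4KO 4 Dmd was -0.025, and Sspn was 0.017 without MI4KO 3 and 0.019 without flox 1 and MI4KO 3 together, an alternative chosen after seeing the data. Highest values with samples left out were 0.10 for Dmd, 0.080 for Dag1 and 0.20 for Sgcd, and the lowest were -0.19 for Utrn and -0.14 for Sspn. The cause was not tested.

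Levels per kb by the longest coding transcript were 9.79 for Dmd, 3.75 for Utrn, 52.5 for Dag1, 8.53 for Sgcd, 12.2 for Dtna and 34.5 for Sspn. Of the lists outside the complex, 3 genes passed the unadjusted p without the filter, 2 with library-size scaling, 3 without the trend, 3 in edgeR, 3 in DESeq2 and 8 without flox 1 and MI4KO 3, and 1 to 10 with 1 sample left out. With the fold limit 1, Myh3, passed with the range covariate, and 0 to 1 with 1 sample left out. Among 18 alternatives, Agrn lost its unadjusted p under 0.05 in 11, Hspg2 in 10, Sgce in 8, Lamb2 in 6 and Dpm3 in 1. Over all genes, p with the fold limit called 41 with a pseudocount of 0.5, 13 with robust estimation, 65 in edgeR, 51 in DESeq2, 41 without flox 1 and MI4KO 3 and 19 to 58 with 1 sample left out. The unadjusted p alone called 634 without the filter, 248 in DESeq2, 637 without flox 1 and MI4KO 3 and 258 to 618 with 1 sample left out. An adjusted p called 1 gene without flox 1 and MI4KO 3, and 0 to 1 with 1 sample left out.

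With 1 sample left out, log2 ratio differences were -0.22 to -0.01 for Utrn to Dmd, -0.54 to -0.24 for Sgce to Sgca, -0.20 to 0.39 for Dtnb to Dtna and -0.020 to 0.070 for Dag1 to Dmd, and with a pseudocount of 1 that of Dtnb to Dtna was -0.0023. No paired analysis was possible because the labels do not give the litter or pair of a mouse. Sgcz and Sntg1 had 0 reads, and Irf4, Dtnb, Sntb1 and Sntg2 at most 26 reads in any sample, which limits what their values can show.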

Other observations

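Markers of other cells in SOL were read beside the complex, as values only. Of 7 slow-fiber genes, 7 were below 0 and 0 passed an unadjusted p under 0.05 in limma (median -0.08), and of 8 fast-fiber genes, 6 were above 0 and 0 passed (median 0.11). These signs depended on single samples. Without MI4KO 4, slow-fiber genes were 3 above and 4 below 0. Fast-fiber genes were 3 above and 5 below without flox 4 and also without MI4KO 3, and 5 above and 3 below in edgeR. Of 5 tested Schwann cell genes 4 were below 0 (median -0.24), of 5 fibroblast genes 5 (median -0.08), of 3 satellite cell genes 2 (median -0.19) and of 4 adipocyte genes 3 (median -0.33), and 0 of these passed. Without flox 4, 3 of the 5 fibroblast genes were above 0 and 2 below. Of 4 macrophage genes, 4 were above 0 and 0 passed (median 0.09). Of 4 tendon genes 1 passed, beside 3.36% of all genes tested. This was Fmod, the matrix proteoglycan fibromodulin, at -0.72, the only marker gene past both limits. Fmod missed an unadjusted p under 0.05 in 7 of 18 alternatives, without the filter, with robust estimation, in DESeq2 and without flox 2, flox 4, MI4KO 1 or MI4KO 2, and was -0.48 with the mouse-number range as a covariate. Of the neutrophil and liver lists, 1 gene each was tested, Cxcr2 at 0.14 and Trf at -0.67, and neither passed. Trf was -0.23 without flox 1, where the liver genes were highest, and -0.81 with the range covariate, where it passed (limma unadjusted p = 0.0450), as it did without MI4KO 4, at -0.87. The adipocyte sum was 7.76 in MI4KO 1 and 12.9 to 35.5 in the other 7 samples.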
